A study of Mus musculus with 6 samples.

Results

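The receptors described here are 10 scavenger and clearance receptor genes of the liver sinusoid: Stab1, Stab2, Mrc1, Lyve1, Fcgr2b, Clec4g, Clec1b, Scarb1, Cd36 and Msr1. They were taken by gene symbol from a table of 24421 genes, and all 10 were among the 12892 genes with enough counts for testing. RNA came from primary mouse liver sinusoidal endothelial cells (LSECs) of the genotype labelled wild, purified with magnetic beads against CD146, kept overnight on collagen I and then without serum for 6 h. One group of 3 samples was afterwards exposed for 8 h to hydrostatic pressure cycling from 101 to 135 kPa (absolute) at 0.01 Hz, and 3 samples served as controls. What the controls went through during those 8 h is not labelled, so pressure and any difference in handling or culture time cannot be told apart. Age, sex and strain of the mice are not labelled, and neither is whether samples of a group came from different animals or cultures. The p-values therefore reflect only how much these samples vary, and that variation may be technical.

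LSECs form the fenestrated wall of the hepatic sinusoid and are among the most active scavenger cells of the body. They remove soluble waste such as hyaluronan, collagen fragments, modified lipoproteins and small immune complexes from the blood. A receptor at the cell surface binds its ligand and is taken up through clathrin-coated pits, and the ligand is passed through early endosomes to lysosomes, where it is degraded. Several of these receptors are not restricted to endothelium: Mrc1, Msr1, Cd36, Fcgr2b and Stab1 are also known from macrophages, and Clec1b from platelets.

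The RefSeq promoter table (GRCm38.p6) held entries for 7 of the 10 genes. Upstream sequence is shown for the stabilin pair and Mrc1, each of which was called lower, for Clec1b, which held 3 matches of 1 motif, and for Cd36, whose change did not pass the test. Each runs 5′ to 3′ on the gene's own strand within the 250 bases before the annotated start site. The Stab1 stretch is chr14:31168642-31168891 on the minus strand, Stab2 chr10:87008026-87008192 on the minus strand and Mrc1 chr2:14229164-14229391 on the plus strand. The Clec1b stretch is chr6:129397047-129397296 on the plus strand and Cd36 chr5:17835897-17836146 on the minus strand. The Cd36 stretch lies inside the span of the gene given below, before an internal annotated start site. Bases that GENCODE M21 assigns to an exon were left out, which shortened Stab2 to 167 and Mrc1 to 228 bases. Capitals mark motif matches on either strand.
Stab1: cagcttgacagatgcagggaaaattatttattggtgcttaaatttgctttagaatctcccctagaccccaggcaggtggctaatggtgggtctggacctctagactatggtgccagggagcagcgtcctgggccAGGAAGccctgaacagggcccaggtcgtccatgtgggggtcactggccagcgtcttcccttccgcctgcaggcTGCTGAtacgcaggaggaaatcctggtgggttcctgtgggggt
Stab2: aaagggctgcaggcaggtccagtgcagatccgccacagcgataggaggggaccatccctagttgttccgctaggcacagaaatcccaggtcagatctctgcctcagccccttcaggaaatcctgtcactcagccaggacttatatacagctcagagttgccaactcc
Mrc1: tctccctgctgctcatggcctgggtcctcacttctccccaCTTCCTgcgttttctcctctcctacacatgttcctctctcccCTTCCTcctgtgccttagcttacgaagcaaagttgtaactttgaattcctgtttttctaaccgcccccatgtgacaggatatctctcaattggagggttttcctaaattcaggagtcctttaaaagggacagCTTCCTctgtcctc
Clec1b: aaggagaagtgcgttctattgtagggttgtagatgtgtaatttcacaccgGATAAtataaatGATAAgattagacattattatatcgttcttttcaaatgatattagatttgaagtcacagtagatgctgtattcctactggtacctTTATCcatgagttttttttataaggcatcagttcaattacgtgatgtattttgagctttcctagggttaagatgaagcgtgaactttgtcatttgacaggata
Cd36: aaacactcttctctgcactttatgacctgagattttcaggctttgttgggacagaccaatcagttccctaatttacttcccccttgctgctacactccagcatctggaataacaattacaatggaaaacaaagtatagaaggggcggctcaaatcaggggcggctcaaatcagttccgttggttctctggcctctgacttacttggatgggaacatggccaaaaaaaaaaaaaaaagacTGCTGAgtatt
The motifs were TGANTCA (AP-1), GATAA (GATA factors), AGGAAG (an ETS core with flanks) and TGCTGA (a MAF half-site). In all 32851 promoter windows of 250 bases, they were found in 6.75%, 22.6%, 29.5% and 16.1%. Of the 7 receptor promoters, 0 held TGANTCA, 1 held GATAA, 4 held AGGAAG and 2 held TGCTGA. Clec1b carried GATAA at 200, 188 and 103 bases before its start, and Mrc1 carried AGGAAG at 210, 168 and 36 bases. Clec4g, whose sequence is not shown, likewise held 3 matches of 1 motif, AGGAAG at 123, 86 and 82 bases. Stab1 carried AGGAAG at 116 bases and TGCTGA at 43, the AGGAAG match of Stab2 lay in its unprinted exonic part, and Cd36 carried TGCTGA at 11 bases. These matches describe letters only.

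In GRCm38 (mm10) all 10 genes are annotated as protein-coding. The positions below cover exons, introns and untranslated regions in GENCODE M21. Stab1 occupies chr14:31139013-31168641, Stab2 chr10:86841198-87008025 and Lyve1 chr7:110850607-110863239. Mrc1 occupies chr2:14229392-14332057, Clec4g chr8:3707064-3720651, Clec1b chr6:129397297-129409335 and Fcgr2b chr1:170958617-170976547. Scarb1 occupies chr5:125277087-125341094, Cd36 chr5:17781690-17888801 and Msr1 chr8:39581685-39642673. Exons of 5 of them overlap exons of another gene by 112 to 184 bases, Clec1b with Clec9a on the same strand and Stab1, Stab2, Fcgr2b and Clec4g with genes on the opposite strand.

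The libraries held 12922959 to 18655749 deposited counts, of which the 10 receptors took 47959 to 119997 per library. Pressure replicate 3 stood apart: its log CPM correlated with the other pressure libraries at 0.987 and 0.989, where the other pairs within a group gave 0.994 to 0.995. Levels are given as CPM, the count scaled to library size and to TMM factors, which adjust for composition, and as mean ± SD with n = 3 unless single libraries are listed. Changes are on the log2 scale, positive where pressure was higher, ± standard error. A gene is called when its Benjamini-Hochberg adjusted p in edgeR's quasi-likelihood test is under 0.05.

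Under pressure 7 of the 10 receptors fell and 0 rose (edgeR; 0 also at an unadjusted p under 0.05, with DESeq2 and with limma-voom). Over all genes tested, 68.8% were called, 35.1% lower and 33.7% higher; with library totals as the only scaling 5887 were lower and 3129 higher, against 4524 and 4347. Stab2, Stab1, Mrc1, Clec1b, Scarb1, Fcgr2b and Clec4g fell, to between 44.7% and 78.2% of control, while Lyve1, Cd36 and Msr1 were not called. The 3 pressure values lay below all 3 control values for 8 receptors (37.0% of all genes) and above them for 0 (34.9% of all genes). The median log2 change of the receptors was -0.56 against -0.015 for all tested genes. Its size was close to the typical size of a change in these data, since the median absolute change was 0.56 for the receptors and 0.54 for all genes. In bulk RNA, fewer cells of a type and less RNA per cell cannot be told apart.

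**Figure D1:**
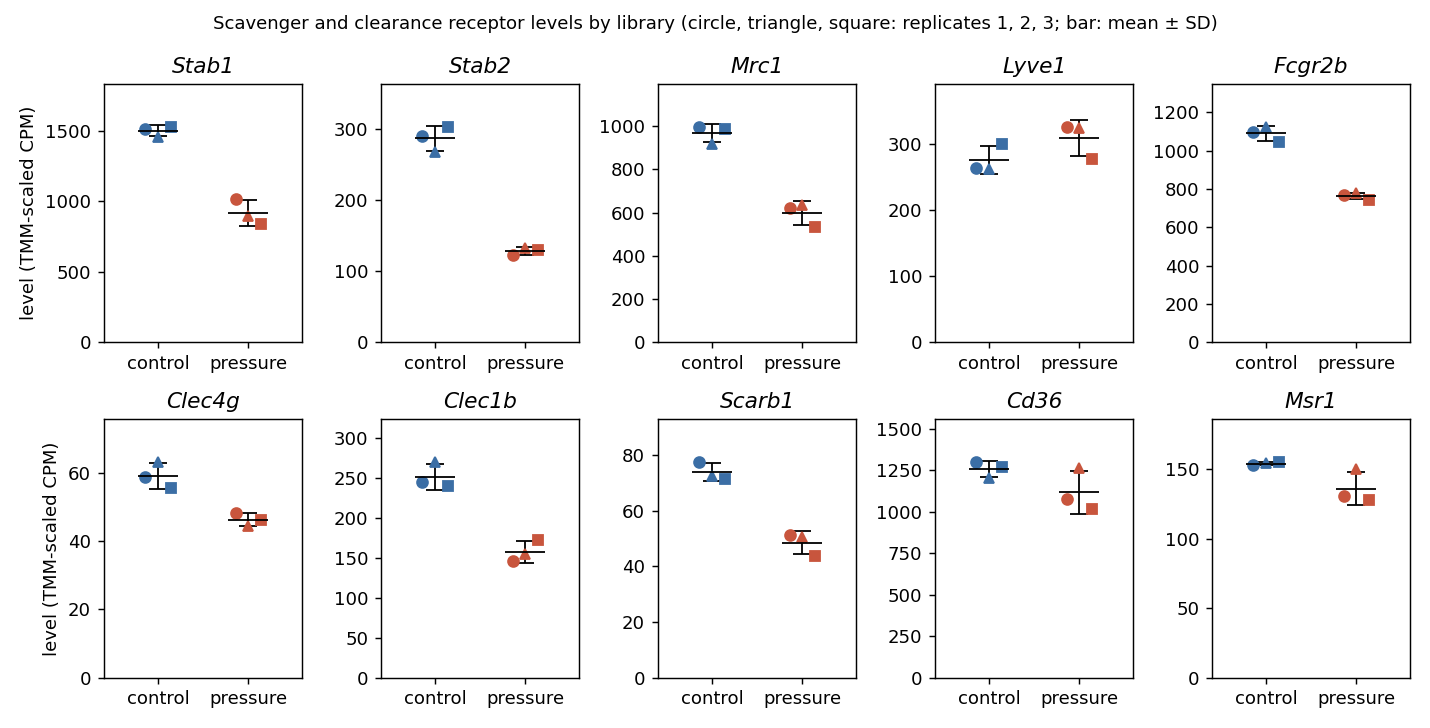
Level of each receptor (TMM-scaled CPM, linear axis from 0) in 3 control and 3 pressure libraries, with 1 point per library and a bar for the mean ± SD. The groups are separate for Stab1, Stab2, Mrc1, Fcgr2b, Clec4g, Clec1b, Scarb1 and Msr1, and overlap for Lyve1 and Cd36.

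The stabilins are large endocytic receptors that bind modified lipoproteins and extracellular matrix waste, and stabilin-2 is the main hyaluronan clearance receptor of LSECs. Stab1 stood at 1513, 1454 and 1527 CPM in control replicates 1, 2 and 3 and at 1014, 897 and 836 CPM in the pressure replicates. Every pressure library was below every control, and Stab1 fell by 0.71 ± 0.077 (adjusted p = 1.61e-05), to 61.1% of control. Nt5dc2, whose exons overlap it on the other strand, had only 27.4 ± 0.953 CPM among controls and 16.3 ± 3.48 CPM with pressure. Stab2 stood at 289, 268 and 302.5 CPM in controls and at 122, 132 and 130 CPM under pressure. No library of one group came near the other, and Stab2 fell by 1.16 ± 0.077 (adjusted p = 6.27e-07), the only receptor past a 2-fold change. It lay at percentile 10.4 of all log2 changes and Stab1 at percentile 21.2, so more negative changes were common among other genes.

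Lyve1, a receptor with a hyaluronan-binding Link domain, stood at 263, 262 and 299.6 CPM in controls and at 325, 323 and 277 CPM under pressure. The groups overlapped because control replicate 3 exceeded pressure replicate 3. Its log2 change of 0.17 ± 0.088 did not pass (adjusted p = 0.114), with a 95% interval from -0.028 to 0.36. Without pressure replicate 3 it was called higher (0.24, adjusted p = 0.00269), and with library totals as the only scaling it was -0.048. Among the alternatives only library totals gave a negative value, which was not called (adjusted p = 0.627), so the sign of Lyve1 depends on the scaling. Its 95% interval lies above that of Stab2, from -1.33 to -0.99. Within each library, the ratio of Stab2 to Lyve1 counts does not depend on scaling. Its log2 value was 0.13, 0.031 and 0.014 in controls and -1.42, -1.29 and -1.09 under pressure. Every pressure ratio was below every control ratio, and the means differed by -1.33 (two-sided exact permutation test over 6 libraries, p = 0.1, the smallest that 3 against 3 allows; 0.1 after adjustment over 3 ratios). Counts of the genes were thus nearly equal in controls (a ratio of 1.04), and Stab2 had 0.416 times the counts of Lyve1 under pressure.

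The ratio of Stab2 to Stab1 counts was lower in every pressure library than in any control. Its log2 value was -2.39, -2.44 and -2.34 in controls and -3.06, -2.76 and -2.68 under pressure, a difference of -0.45 with no overlap between groups (exact permutation p = 0.1, adjusted 0.1). Leaving out 1 library at a time gave differences from -0.52 to -0.33.

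Among lectins, Mrc1 encodes the mannose receptor (CD206), which takes up mannosylated glycoproteins and denatured collagen chains. It stood at 997, 919 and 984 CPM in controls and at 620, 637 and 534 CPM under pressure. The groups were well apart, and Mrc1 fell by 0.69 ± 0.079 (adjusted p = 2.27e-05), to 61.8% of control. Clec4g encodes LSECtin, a C-type lectin of sinusoidal endothelium, and had 58.6, 63.0 and 55.6 CPM in controls against 48.0, 44.4 and 46.2 CPM under pressure. It had the smallest called change, a fall by 0.35 ± 0.083 (adjusted p = 0.00307), again without overlap.

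Clec1b encodes CLEC-2, the podoplanin receptor best known on platelets. Its levels were 245, 270 and 240 CPM in controls and 146, 155 and 172 CPM under pressure. All pressure libraries were lower, with replicate 3 the highest of them, and Clec1b fell by 0.68 ± 0.085 (adjusted p = 4.73e-05). Clec9a, the neighbour whose annotated exons share 184 bases with Clec1b, went from 19.5 ± 1.33 to 1.43 ± 0.236 CPM, a smaller difference in CPM than that of Clec1b. Clec9a has fractional counts in 2 of the 3 control libraries, and how reads of the shared stretch were assigned is not stated, so the Clec1b values are uncertain to that extent. Platelet markers were scarce. Gp1ba, a subunit of the platelet receptor for von Willebrand factor, rose by 1.52 ± 0.21 (adjusted p = 8.60e-05), from 1.47 ± 0.198 to 4.31 ± 0.747 CPM. Pf4 was not called and averaged 3.25 ± 0.650 CPM among controls and 3.79 ± 0.564 CPM with pressure, and Gp6 had 0 counts in all libraries.

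Fcgr2b is the inhibitory low-affinity receptor for IgG, through which LSECs clear small immune complexes. It stood at 1099, 1125 and 1046 CPM in controls and at 769, 779 and 745 CPM under pressure. Replicates were tight in both groups, and Fcgr2b fell by 0.51 ± 0.061 (adjusted p = 3.30e-05), to 70.1% of control. Its deposited counts carry fractions in all libraries, and Fcgr3, a close relative on the same chromosome, went from 73.3 ± 3.25 to 33.8 ± 2.10 CPM. How reads shared between such relatives were assigned is not given in the sources used here, so the Fcgr values are uncertain to that extent. Among markers of B cells, which also carry Fcgr2b, the most abundant was Cd22. It was the only 1 of 9 listed with enough counts for testing, and fell by 0.95 ± 0.11 (adjusted p = 2.43e-05), from 21.9 ± 2.02 to 11.3 ± 0.452 CPM. Cd79a averaged 0.447 ± 0.0423 CPM among controls and 1.36 ± 1.21 CPM with pressure, too few counts for testing. The part of B cell RNA in the Fcgr2b change was not tested.

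Scarb1 and Cd36 belong to the same scavenger receptor family. Scarb1 (SR-BI) takes up cholesteryl esters from high-density lipoprotein, and Cd36 binds long-chain fatty acids, oxidised lipoprotein and thrombospondin. Scarb1 stood at 77.5, 72.6 and 71.4 CPM in controls and at 51.3, 50.4 and 43.8 CPM under pressure, without overlap. It fell by 0.60 ± 0.087 (adjusted p = 1.21e-04), to 65.8% of control. Cd36 stood at 1299, 1201 and 1271 CPM in controls and at 1074, 1263 and 1014 CPM under pressure. Here pressure replicate 2 lay among the controls, and the log2 change of -0.17 ± 0.084 did not pass (adjusted p = 0.0939; 95% interval -0.36 to 0.016). Cd36 was called lower with library totals only (-0.38, adjusted p = 0.00190), with upper-quartile scaling (-0.28, 0.00895) and without pressure replicate 2 (-0.27, 0.0115).

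The log2 ratio of Scarb1 to Cd36 was -4.07, -4.05 and -4.15 in controls and -4.39, -4.65 and -4.53 under pressure. The groups were separate, with a difference of -0.43 (exact permutation p = 0.1, adjusted 0.1; -0.50 to -0.37 with 1 library left out), with Scarb1 lower relative to Cd36 in each pressure library.

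Msr1, the class A receptor for modified lipoproteins that is typical of macrophages, stood at 153, 154 and 155 CPM in controls and at 131, 150 and 128 CPM under pressure. Every pressure value was below every control, by a small margin for replicate 2. The log2 change of -0.18 ± 0.081 did not pass (adjusted p = 0.0709; 95% interval -0.36 to 8.63e-04). It passed under the same 3 settings as Cd36 (-0.39 with library totals only, -0.29 with upper-quartile scaling and -0.25 without pressure replicate 2; adjusted p = 0.00134, 0.00633 and 0.0245). Those scalings lower the median of all genes by 0.213 and 0.113, so changes of this size near 0 depend on the scaling.

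**Figure D2:**
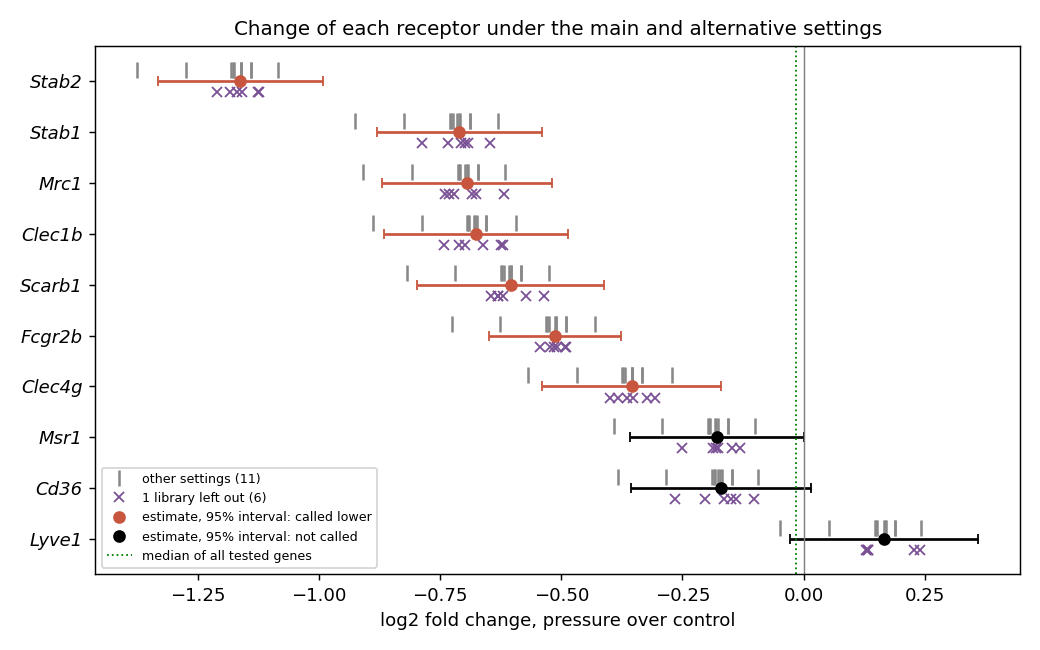
Log2 fold change (pressure over control) of each receptor with its 95% interval, and the same value under 17 alternatives, of which 6 leave out 1 library. Stab2 is lowest at -1.16, the 7 called receptors stay below 0 under every alternative drawn, and Lyve1 lies at 0.17 with values on both sides of 0.

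Per kilobase of annotated exon, Cd36 was the most abundant receptor transcript in controls, at 350 ± 14.1 CPM per kb. Fcgr2b followed at 188 ± 6.93, then Mrc1 at 152 ± 6.60, Stab1 at 146 ± 3.79 and Lyve1 at 94.2 ± 7.29 CPM per kb. Lower on this scale came Clec1b at 49.4 ± 3.14, Stab2 at 32.7 ± 2.00, Msr1 at 24.3 ± 0.162, Clec4g at 24.0 ± 1.53 and Scarb1 at 8.69 ± 0.377. Mean ± SD overlapped for the neighbours Mrc1 and Stab1 and for Msr1 and Clec4g, and for no other neighbours. Under pressure Cd36 stood at 311 ± 36.1 and Fcgr2b at 132 ± 3.00 CPM per kb. Lyve1 came next at 106 ± 9.38, and overlapped Mrc1 at 93.7 ± 8.63, which overlapped Stab1 at 89.0 ± 8.81. Stab2 moved behind Msr1 (21.5 ± 1.90) and Clec4g (18.8 ± 0.745), to 14.6 ± 0.632 CPM per kb, and Scarb1 was again the lowest at 5.71 ± 0.483. Exon lengths came from GENCODE M21, and the transcripts used in these cells may be shorter.

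Relative to the geometric mean of the endothelial transcripts Pecam1, Cdh5 and Tie1 in the same library, Stab2 changed by -1.15 on the log2 scale. The corresponding values were -0.70 for Stab1, -0.68 for Mrc1, -0.66 for Clec1b, -0.60 for Scarb1, -0.50 for Fcgr2b and -0.34 for Clec4g. Groups did not overlap for these 7 receptors, nor for Msr1 (-0.17) and Lyve1 (0.18), each with an exact permutation p = 0.1, the smallest possible (0.111 at the most after adjustment over 10 ratios). Cd36 overlapped (-0.16, exact permutation p = 0.2). The share of all genes without overlap was not computed for this ratio. In CPM it was 37.0% with pressure lower and 34.9% with pressure higher. Pecam1 averaged 1127 ± 17.5 CPM among controls and 1095 ± 36.8 CPM with pressure, Cdh5 (VE-cadherin) 1831 ± 165 and 2123 ± 403 CPM, and neither was called. Tie1, an endothelial receptor kinase, fell by 0.20 ± 0.068, a call lost under 5 of 17 alternatives.

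**Figure D3:**
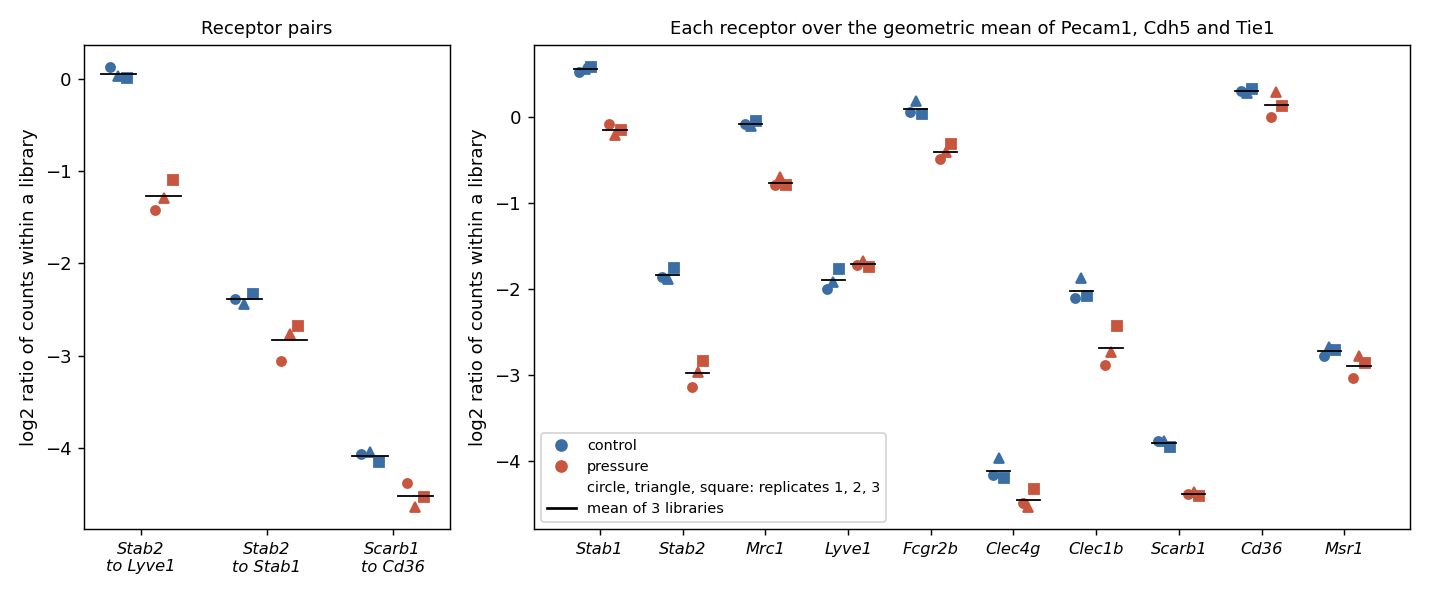
Log2 ratios of counts within each library for 3 receptor pairs (left) and for each receptor over the geometric mean of Pecam1, Cdh5 and Tie1 (right), with 1 point per library and a line for the mean of 3. The Stab2 to Lyve1 ratio drops from about 0.060 to -1.27, and Lyve1 is the receptor whose ratio to endothelial genes is higher under pressure.

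Endothelial transcripts were abundant in all libraries, and so were those of macrophages. The 13 pan-endothelial markers summed to 6568 to 6930 CPM in controls and 6702 to 7227 CPM under pressure. Of these, 3 were called higher and 5 lower. Mcam, which encodes the CD146 used for selection, was low but rose, from 13.9 ± 0.885 to 27.0 ± 4.13 CPM. The 18 Kupffer cell and macrophage markers, of which 18 were tested, summed to 7688 to 8307 CPM in controls and 7239 to 7824 CPM under pressure, with 3 called higher and 4 lower. That split was 2 higher and 8 lower under upper-quartile scaling, and 1 higher and 9 lower under library totals. Cd5l, a secreted macrophage protein, fell by 0.44 ± 0.064, from 2560 ± 101 CPM. Marco, a class A scavenger receptor of Kupffer cells, rose by 0.21 ± 0.070 from 1991 ± 102 CPM, a call lost under 4 of 17 alternatives. The Kupffer cell markers Clec4f (76.0 CPM in controls, 80.3 under pressure) and Timd4 (23.3 and 23.2 CPM), singled out after their values were seen, were not called. The other markers called lower were Vsig4, Cd163 and Tyrobp, each under all 17 alternatives as well. The other markers called higher were Csf1r, a call lost under library totals, and Ptprc, a call kept under all 17. Receptors known from both cell types cannot be assigned to either in these bulk libraries. With libraries scaled to the macrophage markers, an alternative added after seeing the data, 7 receptors were again lower, at -0.27 (Clec4g) to -1.08 (Stab2), and Lyve1 was called higher (0.24, adjusted p = 0.0490). How much of each fall came from macrophage RNA was not tested.

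Markers of other cells were sparse. Stellate and mural markers summed to 155 to 164 CPM in controls and 175 to 192 CPM under pressure, led by Dcn, which rose by 0.35 ± 0.073 from 104 ± 3.85 CPM, a call lost under library totals. Lymphatic endothelial markers summed to 237 to 250.3 and 185 to 225 CPM, nearly all from Flt4, which LSECs also express, while Prox1 stood at 1.29 and 1.10 CPM. All other lists stayed under 56 CPM in every library. Hepatocyte markers summed to 8.21 to 11.3 CPM in controls and 15.2 to 19.2 CPM under pressure, with Alb higher by 0.90 ± 0.17. Cholangiocyte markers summed to 10.7 to 12.8 and 18.9 to 20.9 CPM, with Cftr, which was not called, and Spp1, which rose by 1.04 ± 0.15. Monocyte and neutrophil markers summed to 30.7 to 34.4 and 17.0 to 22.9 CPM, led by Plac8 (-0.62 ± 0.12) and Csf3r (-1.08 ± 0.15). Dendritic cell markers summed to 48.8 to 55.6 and 29.8 to 34.1 CPM. Of 5 tested, only Clec9a, whose exons overlap those of Clec1b, was called lower (19.5 and 1.43 CPM). Xcr1 was called higher, and Zbtb46 was not called (18.0 and 16.2 CPM). B and plasma cell markers summed to 21.7 to 25.5 and 12.4 to 16.3 CPM, mostly from Cd22 (-0.95 ± 0.11). T and NK cell, platelet and erythroid markers stayed under 11 CPM in every library. Their part in the receptor changes was not tested.

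**Figure D4:**
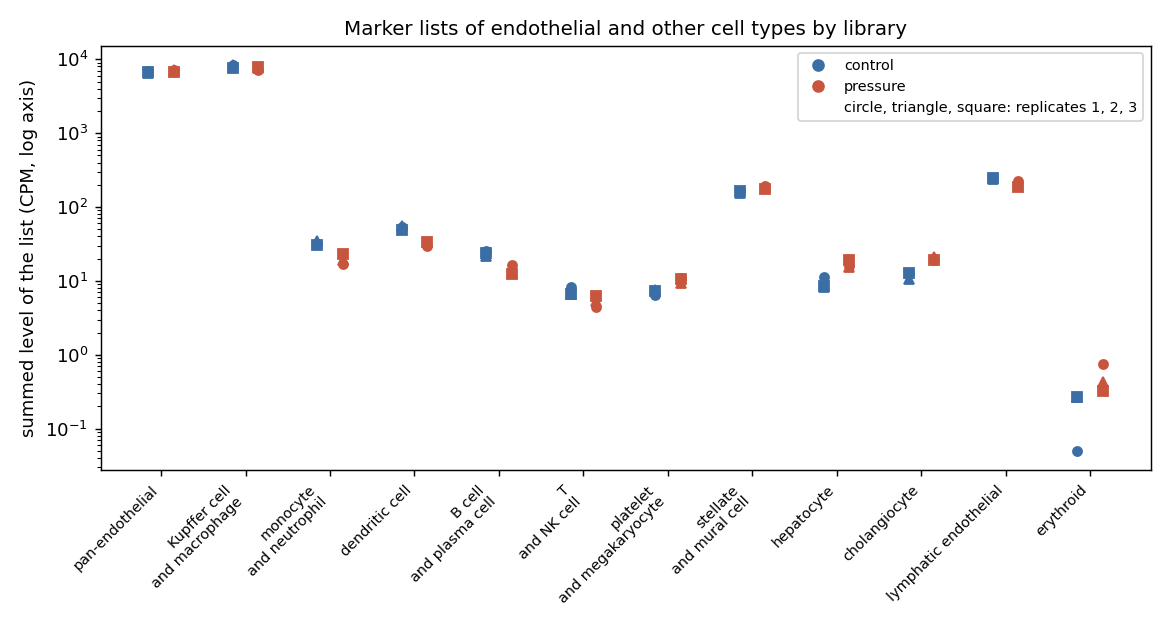
Summed level of each marker list (CPM, log axis) in every library, blue for control and red for pressure. Pan-endothelial and macrophage lists lie between 6568 and 8307 CPM in all 6 libraries, and every other list lies below 251 CPM.

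Other receptors that bind waste, lectin ligands or antibodies moved both ways. Of 31 listed, 27 were tested, 12 fell and 5 rose (median log2 change -0.28; 17 lower and 3 higher under library totals). Clec4e (Mincle), a lectin that recognises damaged cells and mycobacteria, rose by 1.27 ± 0.10, from 16.0 ± 1.01 to 38.6 ± 3.16 CPM. Olr1 (LOX-1), the endothelial receptor for oxidised lipoprotein, rose by 0.69 ± 0.090 to 52.7 ± 2.45 CPM. Clec14a, an endothelial C-type lectin, fell by 1.399 ± 0.11, from 136 ± 9.68 to 51.7 ± 7.16 CPM, and Fcgr3 fell by 1.12 ± 0.085. The other Fc receptors in the list, singled out after their values were seen, also fell: Fcgr1 (-0.92), Fcgr4 (-0.70) and Fcgrt (-0.77), the neonatal receptor that recycles IgG and albumin.

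Lipoprotein and protein clearance receptors had 10 of 18 tested members lower and 6 higher (median -0.34), and 10 lower and 5 higher with library totals only. Vldlr, the very-low-density lipoprotein receptor, rose by 1.76 ± 0.20 to 9.64 ± 1.26 CPM, and Lrp8, its close relative, rose by 1.09 ± 0.12 to 55.0 ± 9.36 CPM. Insr (insulin receptor) fell by 0.82 ± 0.12 to 33.0 ± 5.72 CPM.

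The uptake machinery changed in both directions as well. Of 31 tested genes for clathrin coats and early endosomes, 16 fell and 8 rose (median -0.23), and 19 were lower and 7 higher with library totals only. Cltb, a clathrin light chain, rose by 1.505 ± 0.10, from 48.5 ± 4.70 to 138 ± 14.1 CPM, and Rab5a, a GTPase of early endosomes, rose by 0.65 ± 0.076 to 135 ± 8.24 CPM. Its paralogue Rab5b fell by 1.98 ± 0.11, from 155 ± 5.35 to 39.4 ± 5.83 CPM, and Epn2, an epsin of coated pits, fell by 2.22 ± 0.099, from 140 ± 2.49 to 30.0 ± 3.73 CPM. All 5 listed subunits of the AP-2 clathrin adaptor, a group chosen after the values were seen, fell, by 0.34 (Ap2m1) to 0.84 (Ap2s1).

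Of 40 genes for the breakdown of scavenged ligands, mostly but not all lysosomal, 19 fell and 8 rose (median -0.19). With library totals only, 27 were lower and 3 higher. Tmem2, described as a cell-surface hyaluronidase, fell by 2.10 ± 0.077, from 630 ± 29.0 to 147 ± 9.24 CPM, and Dnase2a, an acid nuclease, fell by 1.04 ± 0.084 to 51.0 ± 3.50 CPM. Hyal2, another hyaluronidase, singled out after its value was seen, fell by 1.49 to 34.2 CPM, while Hyal1 (5.78 CPM in controls, 6.58 under pressure) was not called. Gla, the lysosomal alpha-galactosidase, rose by 0.92 ± 0.067 to 330 ± 9.49 CPM. Ctsl, the protease cathepsin L, rose by 0.64 ± 0.054, from 3468 ± 33.4 to 5399 ± 151 CPM.

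Among ligands of the receptors and enzymes that make them, 8 of 17 tested genes rose and 1 fell (median 0.31; 6 higher and 3 lower with upper-quartile scaling or library totals only). Thbs1 (thrombospondin 1), a ligand of Cd36, rose by 1.66 ± 0.15, from 29.5 ± 5.25 to 93.0 ± 17.2 CPM. Col4a1, a basement membrane collagen chain, rose by 0.96 ± 0.072 to 2041 ± 167 CPM. Chid1, which encodes a protein that binds stabilin-1 inside the cell, fell by 1.27 ± 0.12, from 45.02 ± 2.50 to 18.8 ± 3.46 CPM. Hyaluronan synthases were scarce, with 0 counts of Has2 in all libraries and at most 1.17 CPM of Has3 in a group mean, and Pdpn, the ligand of Clec1b, stood at 0.931 and 0.882 CPM.

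Lipid uptake partners of Scarb1 and Cd36 were evenly divided, with 8 of 20 tested genes higher and 8 lower (median -0.14; 4 higher and 9 lower with library totals only). The acyl-CoA synthetases Acsl1 and Acsl4, which activate fatty acids, rose by 1.19 ± 0.088 and 1.35 ± 0.11, Acsl4 from 122 ± 9.11 to 310 ± 44.96 CPM. Lpl (lipoprotein lipase) fell by 0.85 ± 0.065, from 800.5 ± 9.40 to 443 ± 23.3 CPM, and Soat1, which esterifies cholesterol, fell by 1.09 ± 0.096 to 91.8 ± 11.7 CPM.

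Of 24 transcription factors linked to scavenger genes of this endothelium, 10 fell and 7 rose. Their median was 0.10, and it turned negative under upper-quartile scaling (-0.014) and library totals (-0.11). Nr1h3, the sterol-sensing liver X receptor alpha, fell by 1.84 ± 0.13, from 50.8 ± 4.16 to 14.3 ± 2.54 CPM, and Sox18 fell by 2.86 ± 0.16. Klf4 rose by 2.25 ± 0.17 and Sox17 by 2.21 ± 0.13. Maf, chosen after its value was seen, fell by 1.49, from 152 to 54.3 CPM, and Gata4, which drives sinusoidal identity, was not called (220 and 242 CPM).

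Other markers of LSECs fell in 10 of 16 cases and rose in 2 (median -0.49), where 35.1% and 33.7% of all tested genes did. With upper-quartile scaling or library totals only, 13 were lower and 1 higher, and with macrophage-marker scaling 8 were lower and 2 higher. The matrix protein gene Oit3 fell by 2.86 ± 0.075 and Bmp2 by 1.85 ± 0.069, larger changes than that of any receptor described here. The rises were those of Ctsl and of Rspo3 (0.26 ± 0.10), the latter lost under 11 of 17 alternatives.

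**Figure D5:**
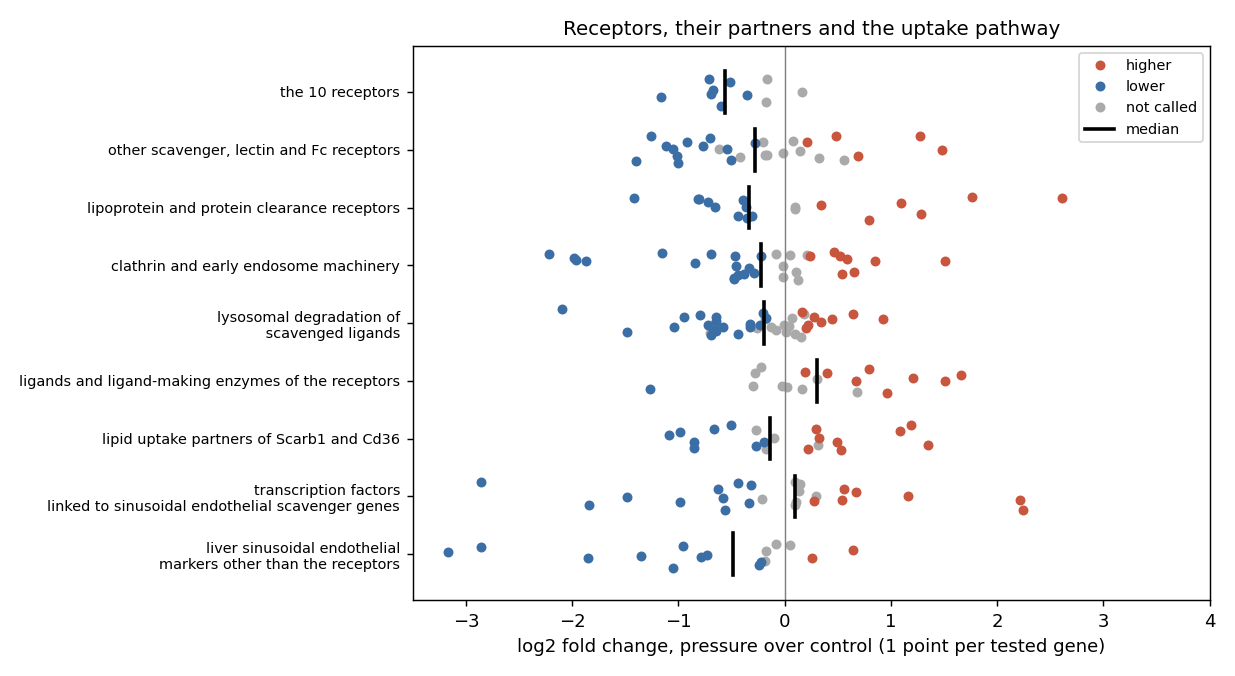
Log2 fold change of every tested gene in the 10 receptors and in 8 lists of related genes, with red for called higher, blue for called lower, grey for not called and a bar at the median. Most lists hold points on both sides of 0, with medians from -0.56 (the receptors) to 0.31 (their ligands).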

How the data were processed

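Stranded poly(A) libraries were read on an Illumina instrument as single reads, per the labels' protocols. The submitters' processing notes name TopHat2 2.2.1, Cufflinks 2.2.1 and mm10, while for the counter, strand setting and gene models the entry is "not given in the sources used here". Values deposited for each gene symbol are expected counts, partly fractional. They were rounded, filtered with filterByExpr (minimum count 10, total 15), scaled with TMM factors and tested two-sided by group alone, using edgeR 4.0.16 in R 4.3.3 (quasi-likelihood F-test), with p-values adjusted over 12892 genes. The standard error is the log2 fold change divided by the square root of F. Ratios within libraries were compared by exact permutation. The test was checked on data drawn with known changes in far fewer genes than were called here. How it behaves when most genes change was not checked. No library pair of a group agreed within sampling noise (chi-square per degree of freedom at least 2.96).

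Alternatives used DESeq2 1.42.0, limma 3.58.1 (voom), other scalings and filters, a block on sample number and each library left out. The receptors, lists and tests were chosen with earlier results of these data known. Named genes are all 10 receptors; from each related list, up to 2 called genes per direction with the smallest p and a mean of at least 5 CPM; from each marker list, the 2 most abundant; and Pecam1, Cdh5 and Tie1. Further genes were named after their values were seen, for a known role or an overlap with a receptor. One gene that the rule selects is not reported here. Exon lengths and positions came from GENCODE M21.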

Additional observations from a re-analysis of the deposited data

How the results depend on the processing

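The 7 receptors called lower were called lower under all 17 alternative fits, and 9 were with library totals only, with upper-quartile scaling and without pressure replicate 2, where Cd36 and Msr1 joined them. Over all genes, these settings gave 5887 lower of 12892 tested, 5188 of 12892 and 4157 of 13069, against 4524 of 12892 in the main fit. The number of receptors called higher was 0 to 1 with 1 library left out. It was 1 with scaling to macrophage markers, an alternative chosen after seeing the data. The gene was Lyve1. Requiring a change of at least 1.5-fold left 5 receptors lower, and at least 2-fold left 1. Over all genes, 5848 were called at 1.5-fold or more (2677 higher) and 3006 at 2-fold or more (1243 higher, 1763 lower), and library totals only gave 3129 higher and 5887 lower. Whether equal sample numbers mark paired libraries is not labelled. Correlations of same-numbered deviations were 0.13, -0.23 and -0.13. They cannot decide it, because deviations from a mean of 3 libraries depend on one another. With the number as a replicate block 7 receptors were lower, 0 higher, and 8384 genes were called. The lowest receptor count in any library was 535 (Scarb1, pressure replicate 3).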

Other observations

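The make-up of the receptor pool differed between the groups. The 10 receptors together took 0.621% to 0.644% of all counts in controls and 0.371% to 0.412% under pressure. These shares use library totals only. With TMM factors the receptors summed to 5788 to 5995 CPM in controls and 3927 to 4430 CPM under pressure, a smaller drop. Of those receptor counts, Cd36 took 20.8% to 21.7% in controls and 25.0% to 28.5% under pressure, and Lyve1 took 4.39% to 5.03% and then 7.05% to 7.57%. Stab1 went the other way, from 25.1% to 25.7% in controls to between 20.2% and 23.6% under pressure, and Stab2 from 4.63% to 5.08% to between 2.83% and 3.31%. Fcgr2b overlapped between groups, at 17.6% to 19.4% and 17.6% to 19.0%. Stab1 had the largest share in each control library and Cd36 the largest in each pressure library. Such shares sum to a whole, so a rise of one can reflect a fall of others.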
